A study of Mus musculus with 11 samples.

Results

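Expression of 9 genes of mitochondrial clearance was followed through the deposited expression table, chosen by name: Pink1, Bnip3, Bnip3l, Fundc1, Optn, Sqstm1, Tbk1, Calcoco1 and Tax1bp1. All 9 were found among the 20888 rows, and all 9 passed the filter on low values, at least 0.5 RPKM in at least 3 libraries, that left 14347 genes for testing. RPKM divides reads by gene length and by the depth of the library, so levels of different genes can be set side by side per length. The tissue was the lumbar spinal cord of C57BL/6 mice aged 10 months. It came from 3 nontransgenic mice (nTg), 3 mice carrying MFN2-R94Q and 5 carrying both MFN2-R94Q and MFN1 (MFN2-R94Q:MFN1). The series title places MFN2-R94Q in a mouse model of CMT2A, an inherited neuropathy of axons caused by mutations of the mitofusin MFN2, which fuses mitochondrial outer membranes. Genotype was the only label that differed between the groups, and no group carried MFN1 without MFN2-R94Q. Which promoter, cell type or species the transgenes have was not stated in the sources used here. Each library was taken as 1 animal because the design text counts mice.

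Mitophagy is the engulfment of damaged or surplus mitochondria by autophagosomes. In the ubiquitin-dependent route the kinase PINK1 accumulates on depolarised mitochondria and phosphorylates ubiquitin on outer-membrane proteins, mitofusins among them. Adaptors that bind both ubiquitin and the ATG8 proteins of the autophagosome, such as optineurin and p62, then tether the cargo, and the kinase TBK1 phosphorylates them. A second route needs no ubiquitin: BNIP3, BNIP3L (also called NIX) and FUNDC1 sit in the outer membrane and bind ATG8 proteins themselves. In humans, mutations of PINK1 cause early-onset Parkinson disease, and mutations of OPTN, SQSTM1 and TBK1 are found in amyotrophic lateral sclerosis, a disease of motor neurons.

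Of the 9 genes, 1, Optn, passed the test in MFN2-R94Q against nTg, where 7.5% of all tested genes were higher and 10.4% lower. Optn averaged 14.7 ± 1.08 RPKM against 11.7 ± 0.242 in nTg (SD, n = 3 each). With MFN1 added, Optn fell to 12.9 ± 0.505 RPKM (n = 5), a call that was lost in 9 of 23 alternatives. In that comparison 3.33% of all tested genes were lower and 9.55% higher. The outer-membrane receptors Bnip3, Bnip3l and Fundc1, the kinase gene Pink1 and the p62 gene Sqstm1 passed the test in no comparison.

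The upstream sequence of 2 members is shown, Optn because it changed most, and Bnip3 because it is the receptor gene best known for control by hypoxia and its window holds that kind of motif. Both are the 250 bases before the start used in the RefSeq promoter table, on the gene's own strand in GRCm38.p6. The Optn window is chr2:5064118-5064367 and the Bnip3 window chr7:138909507-138909756, each on the minus strand. The Bnip3 window begins where the annotated gene ends, whereas the Optn window lies inside the widest annotated span of its gene, which reaches 5064399. Capitals mark CACGTG, a palindrome 108 to 103 bases before the Bnip3 start. It reads as an E-box and holds the hypoxia response core ACGTG on each strand.
Optn: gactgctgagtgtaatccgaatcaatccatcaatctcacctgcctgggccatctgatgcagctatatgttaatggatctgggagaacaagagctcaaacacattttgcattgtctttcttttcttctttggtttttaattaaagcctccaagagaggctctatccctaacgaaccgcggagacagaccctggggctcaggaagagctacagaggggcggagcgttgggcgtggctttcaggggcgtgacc
Bnip3: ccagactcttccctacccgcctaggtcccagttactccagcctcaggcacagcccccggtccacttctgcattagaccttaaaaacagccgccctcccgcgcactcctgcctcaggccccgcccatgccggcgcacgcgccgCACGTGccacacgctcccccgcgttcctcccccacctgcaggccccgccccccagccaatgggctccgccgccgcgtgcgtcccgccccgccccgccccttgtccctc
RefSeq promoters were at hand for 8 members, in 9 entries, Tax1bp1 having a pair. A script searched these windows on both strands for 6 motifs. The core ACGTG was found in Bnip3 and in 1 Tax1bp1 entry, and in 16.6% of all 32851 promoters of the same length. That Tax1bp1 entry also held TGACGAAGC, a match to the antioxidant-type motif TGACNNNGC that 10.2% of promoters hold. CACGTG, found in Bnip3, occurs in 6.02% of promoters. The lysosomal motif TCACGTGA (0.785% of promoters), the glucocorticoid-type pattern ACANNNTGT (5.84%) and the FOXO motif GTAAACA (3.17%) were in none of the 9 entries. These are matches of letters and say nothing of which factors bind.

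The libraries held 30.6 to 72.0 M reads, as read from the whole-read steps of short RNA genes, so 1 RPKM stood for about 30.6 to 72.0 reads per kilobase of gene. The members had about 1063 to 40081 reads per library, Optn the fewest and Sqstm1 the most. MFN2-R94Q replicate 2 stood apart. Its median absolute log2 difference from the other libraries of its group was 0.107, against 0.0482 to 0.0906 in the rest. The summed level of 17 glucocorticoid response genes was 1891 RPKM in it, 878 and 1144 RPKM in MFN2-R94Q replicates 1 and 3, and 633 to 884 RPKM in the other 8 libraries. Of these 17 genes, 8 were higher in MFN2-R94Q than in nTg and 10 were lower in MFN2-R94Q:MFN1 than in MFN2-R94Q (6 and 5 without replicate 2, 15 and 16 without replicate 1). Of all tested genes, 7.5% were higher in the first of these comparisons and 3.33% lower in the second. Leaving out single libraries gave 5 to 15 for the first count, lowest without nTg replicate 2 or 3, and 4 to 16 for the second, lowest without MFN2-R94Q:MFN1 replicate 2. Mfn1 lay between 24.2 and 26.6 RPKM and Mfn2 between 43.3 and 47.7 RPKM over all libraries, which does not check the labels because the species of the transgenes is not known here.

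Neuron markers summed to 2330 to 2364 RPKM in nTg, 2207 to 2248 in MFN2-R94Q and 2226 to 2289 in MFN2-R94Q:MFN1, so every nTg library lay above every transgenic one. Of the 7 genes, 1, Syt1, was higher (log2 0.15) and 1, Tubb3, lower (-0.15) in MFN2-R94Q than in nTg (0 and 1 without MFN2-R94Q replicate 2). Of all tested genes, 7.5% were higher and 10.4% lower there. In MFN2-R94Q:MFN1 against nTg, 0 of the 7 passed. Red blood cell markers summed to 196 to 260, 116 to 247 and 147 to 460 RPKM in nTg, MFN2-R94Q and MFN2-R94Q:MFN1. Markers of dorsal root ganglion and skeletal muscle each had 4 of 5 genes under 0.5 RPKM in every library, among them the nociceptor channel gene Scn10a and the muscle creatine kinase gene Ckm. Schwann cell markers summed to 1.05 to 2.07 RPKM except in MFN2-R94Q:MFN1 replicate 3, at 12.7 RPKM. Summed motor neuron markers were 111 to 113 RPKM in nTg, 88.7 to 101 in MFN2-R94Q and 101 to 109 in MFN2-R94Q:MFN1, with 6 of 8 lower in MFN2-R94Q than in nTg. Oligodendrocyte markers summed to 4033 to 4372, 3602 to 3920 and 4200 to 4509 RPKM in the same order, and in MFN2-R94Q 4 of 8 were lower and 1, Cldn11, higher (2 lower and 1 higher without replicate 2). Microglia markers summed to 157 to 165, 150 to 172 and 223 to 250 RPKM, and astrocyte markers to 1070 to 1088, 1059 to 1107 and 1241 to 1309 RPKM. The astrocyte sum hid opposite shifts in MFN2-R94Q against nTg, with 1 of 7 genes higher and 2 lower (1 and 1 without replicate 2). Gfap was higher (log2 0.52, adjusted p = 0.0010), and S100b (-0.35, adjusted p = 0.0031) and Gja1 (-0.15, adjusted p = 0.041) were lower. In whole tissue, fewer cells of a type and less RNA per cell cannot be told apart, and the part of these shifts in the results on the 9 genes was not tested.

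The members spanned a wide range of levels in nTg cord. Pink1 was highest at 220 ± 7.15 RPKM, above 99.0% of the tested genes, and Sqstm1 followed at 205 ± 6.06. The receptors came next, Bnip3 at 64.6 ± 2.48, Bnip3l at 48.1 ± 0.651 and, after Tax1bp1 at 42.9 ± 1.59, Fundc1 at 25.1 ± 0.999. Calcoco1 at 19.7 ± 0.386 and Tbk1 at 13.7 ± 0.704 were lower, and Optn was last at 11.7 ± 0.242 RPKM, above 63.8% of tested genes. No 2 neighbours in this order overlapped over the 3 nTg libraries. Every group had the same order of means. Mean Sqstm1 stood 17.5 times above mean Optn in nTg, 14.6 times in MFN2-R94Q and 15.7 times in MFN2-R94Q:MFN1.

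Overlaps between neighbours appeared in the other groups. In MFN2-R94Q, the libraries overlapped for Pink1 and Sqstm1, for Bnip3l and Tax1bp1, and for Tbk1 and Optn. In MFN2-R94Q:MFN1 they overlapped for Pink1 and Sqstm1 alone. The ratio of mean Optn to mean Tbk1 was 0.856 in nTg, 0.994 in MFN2-R94Q and 0.911 in MFN2-R94Q:MFN1. Over all 11 libraries the coefficient of variation was lowest for Bnip3, at 3.37%, and highest for Optn, at 9.88%, with Bnip3l next at 5.98%.

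**Figure D1:**
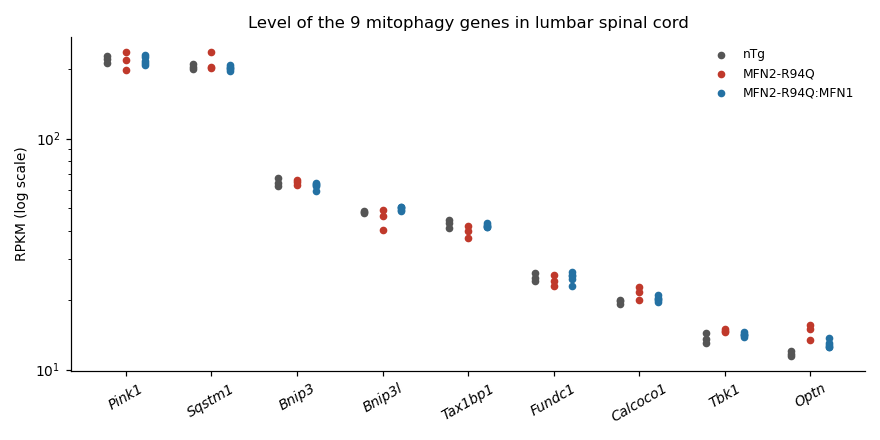
Levels of the 9 genes in RPKM on a log axis, ordered by their nTg mean; each point is 1 library and colours mark the genotype. Pink1 and Sqstm1 sit between 196 and 236 RPKM and Optn between 11.5 and 15.6 RPKM.

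Pink1, the sensor kinase, lay on chromosome 4 (138313409 to 138326296, minus strand, GRCm38.p6, 8 exons). Its values were 221, 213 and 227 RPKM in nTg, 199, 236 and 219 in MFN2-R94Q, and 212, 226, 217, 208 and 229 in MFN2-R94Q:MFN1. The lowest and the highest of the 11 values were both MFN2-R94Q libraries, replicates 1 and 2, and all groups overlapped. The log2 fold change of MFN2-R94Q against nTg was -0.02, with a 95% interval from -0.14 to 0.11 (adjusted p = 0.87). Against MFN2-R94Q, MFN2-R94Q:MFN1 was at 0.00 (-0.10 to 0.11, adjusted p = 0.97). The microRNA genes Mir7019 and Gm27646 lie on the same strand within its exons.

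**Figure D2:**
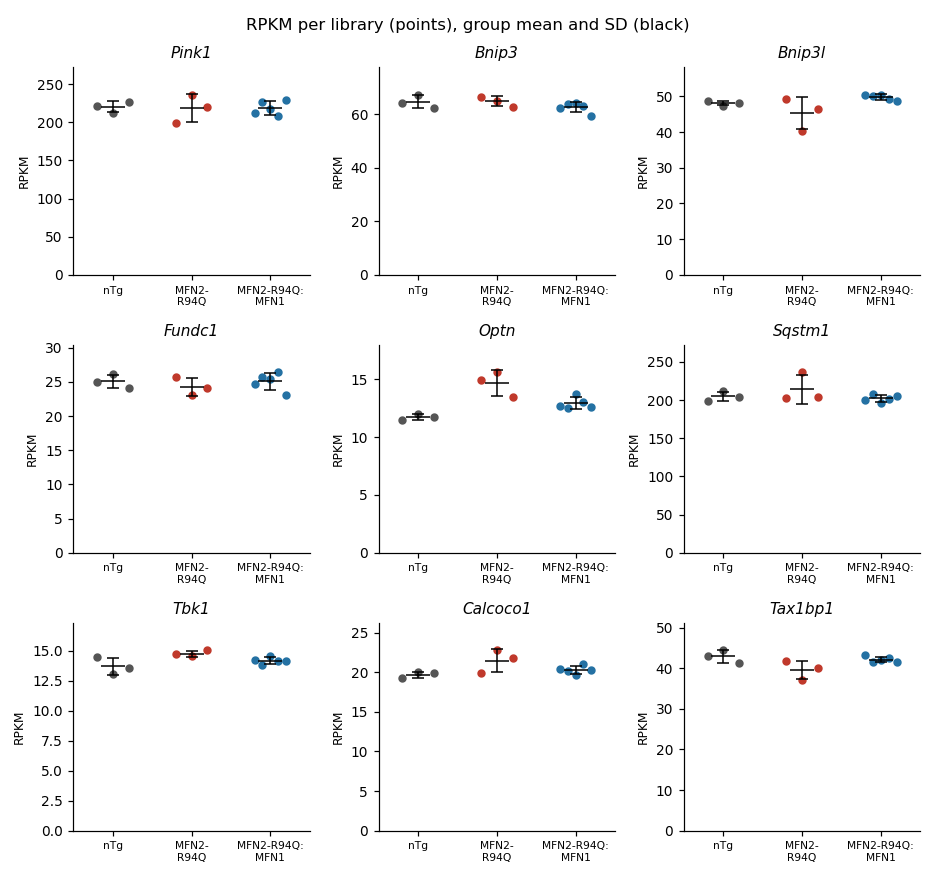
RPKM of each gene in every library, 1 panel per gene with its axis from 0; points are libraries and bars show the group mean and SD. All 3 MFN2-R94Q points lie above the nTg points for Optn and Tbk1, and the groups overlap for Pink1, Bnip3 and Fundc1.

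Among the outer-membrane receptors, Bnip3, a hypoxia-induced BH3-type protein, lay on chromosome 7 (138890836 to 138909506, minus strand, 6 exons). It ranged from 62.4 to 67.3 RPKM in nTg, from 62.8 to 66.5 in MFN2-R94Q and from 59.4 to 64.3 in MFN2-R94Q:MFN1. The 3 ranges overlapped, and the log2 fold change of MFN2-R94Q against nTg was 0.003 (-0.08 to 0.09, adjusted p = 0.97). An antisense gene, Gm45507, overlaps its exons on the opposite strand.

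Bnip3l, the NIX receptor that clears mitochondria from maturing red cells, lay on chromosome 14 (66985238 to 67008877, minus strand, 7 exons). It was at 48.7, 47.4 and 48.2 RPKM in nTg, 49.2, 40.3 and 46.4 in MFN2-R94Q, and 50.5, 50.2, 50.4, 49.2 and 48.6 in MFN2-R94Q:MFN1. The value of 40.3 belonged to MFN2-R94Q replicate 2 and was the lowest of all. The estimate was -0.09 for MFN2-R94Q against nTg (-0.21 to 0.03, adjusted p = 0.26) and 0.14 for MFN2-R94Q:MFN1 against MFN2-R94Q (0.03 to 0.25, adjusted p = 0.079). Without MFN2-R94Q replicate 1 these became -0.15 (adjusted p = 0.048) and 0.20 (adjusted p = 0.014). Without replicate 2 they were -0.01 (adjusted p = 0.87) and 0.06 (adjusted p = 0.30). The MFN2-R94Q mean was 47.8 RPKM without replicate 2, against 45.3 ± 4.52 with it.

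Fundc1, a receptor whose binding to ATG8 proteins is set by phosphorylation, lay on the X chromosome (17519967 to 17572329, minus strand, 5 exons). It ranged from 24.1 to 26.1 RPKM in nTg, from 23.1 to 25.7 in MFN2-R94Q and from 23.1 to 26.4 in MFN2-R94Q:MFN1, with full overlap. Its estimates were -0.04 (-0.16 to 0.07, adjusted p = 0.58) for MFN2-R94Q against nTg and 0.04 (-0.06 to 0.15, adjusted p = 0.57) for MFN2-R94Q:MFN1 against MFN2-R94Q. Over these 3 receptors, the intervals for MFN2-R94Q against nTg reached -0.21 at the lowest, in Bnip3l, and 0.09 at the highest, in Bnip3.

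Optn, the ubiquitin and ATG8 binding adaptor optineurin, lay on chromosome 2 (5020521 to 5064399, minus strand, 14 exons). Its values were 11.5, 12.0 and 11.7 RPKM in nTg, 15.0, 15.6 and 13.5 in MFN2-R94Q, and 12.7, 12.5, 13.7, 13.0 and 12.6 in MFN2-R94Q:MFN1. Every MFN2-R94Q library and every MFN2-R94Q:MFN1 library exceeded the 3 nTg libraries, and MFN2-R94Q:MFN1 replicate 3 lay above MFN2-R94Q replicate 3. Optn rose in MFN2-R94Q by a log2 fold change of 0.31 (SE 0.053, 95% interval 0.19 to 0.42, adjusted p = 0.0037), or 1.24-fold. Among all tested genes, 7.81% had a larger absolute estimate. It stayed past the threshold in all 23 alternatives, between 0.22 and 0.37, and was 0.26 (adjusted p = 0.0083) without MFN2-R94Q replicate 2. A gene on the opposite strand, 4930551O13Rik, shares some exon bases with Optn, and it is not stated whether counting used strand.

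In MFN2-R94Q:MFN1, Optn fell by 0.18 on the log2 scale against MFN2-R94Q (SE 0.047, 95% interval -0.28 to -0.07, adjusted p = 0.030), to 0.885 of its level. With library weights the estimate was -0.09 (adjusted p = 0.090), and the call was lost in 9 of 23 alternatives. Leaving out MFN2-R94Q replicate 1 gave -0.16 (adjusted p = 0.067) and leaving out replicate 2 gave -0.13 (adjusted p = 0.12). It was also lost without MFN2-R94Q:MFN1 replicate 1, 2 or 5 (adjusted p = 0.058, 0.069 and 0.067). Against nTg, MFN2-R94Q:MFN1 stood at 0.13 (0.03 to 0.23, adjusted p = 0.20) with no overlap between the groups.

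**Figure D3:**
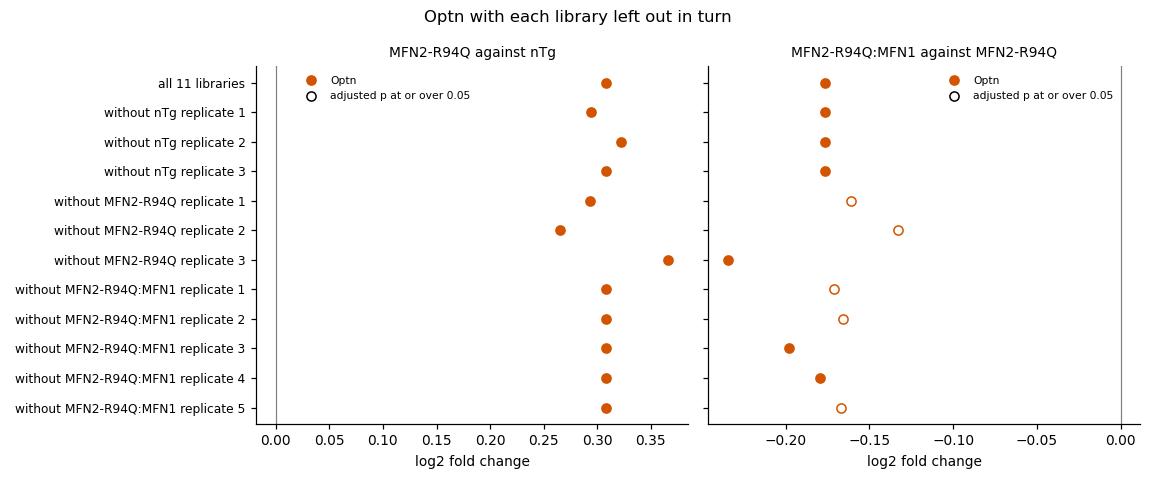
Log2 fold changes of Optn in the first 2 comparisons with all libraries and with each library left out in turn; filled points have an adjusted p under 0.05. Optn stays filled throughout against nTg, between 0.26 and 0.37, and loses the mark in 5 runs of MFN2-R94Q:MFN1 against MFN2-R94Q.

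Sqstm1, the p62 adaptor that is itself degraded by autophagy, lay on chromosome 11 (50200152 to 50210820, minus strand, 8 exons). It was at 199, 211 and 204 RPKM in nTg, 203, 236 and 204 in MFN2-R94Q, and 200, 208, 196, 202 and 205 in MFN2-R94Q:MFN1. MFN2-R94Q replicate 2 was the highest library, and without it the MFN2-R94Q mean was 203 in place of 214 ± 19.1. The estimate against nTg was 0.06 (-0.05 to 0.17, adjusted p = 0.44), and -0.01 without that library. Mrnip overlaps its exons on the opposite strand.

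Tbk1, the kinase that phosphorylates both adaptors, lay on chromosome 10 (121546455 to 121586794, minus strand, 21 exons). Its values were 14.46, 13.06 and 13.60 RPKM in nTg, 14.70, 14.54 and 15.03 in MFN2-R94Q, and 14.22, 13.81, 14.55, 14.13 and 14.17 in MFN2-R94Q:MFN1. The MFN2-R94Q libraries all lay above nTg, by a narrow margin over nTg replicate 1. The estimate of 0.10 (SE 0.041, 0.01 to 0.19) missed the threshold at an adjusted p of 0.096, and was 0.14 (adjusted p = 0.048) without nTg replicate 1 and 0.07 (adjusted p = 0.31) without nTg replicate 2. In MFN2-R94Q:MFN1 it was -0.06 against MFN2-R94Q (-0.14 to 0.02, adjusted p = 0.33).

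Calcoco1 and Tax1bp1 belong to the CALCOCO family of autophagy adaptors, whose mouse Calcoco2 gene was not among the tested genes. Calcoco1, an adaptor of endoplasmic reticulum and Golgi autophagy, lay on chromosome 15 (102706777 to 102722178, minus strand, 14 exons). It was at 19.3, 19.99 and 19.8 RPKM in nTg, 19.9, 22.8 and 21.8 in MFN2-R94Q, and 20.4, 20.1, 19.7, 21.1 and 20.3 in MFN2-R94Q:MFN1. MFN2-R94Q replicate 1 lay within the nTg range and the other 2 above it. The estimate against nTg was 0.12 (SE 0.046, 0.02 to 0.22, adjusted p = 0.087), and 0.17 (adjusted p = 0.014) without MFN2-R94Q replicate 1 but 0.08 (adjusted p = 0.26) without replicate 2. Against MFN2-R94Q, MFN2-R94Q:MFN1 was at -0.08, and at -0.13 (adjusted p = 0.037) and -0.04 (adjusted p = 0.64) without the same libraries.

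Tax1bp1, a ubiquitin-binding adaptor, lay on chromosome 6 (52713692 to 52766780, plus strand, 18 exons). It was at 43.1, 44.4 and 41.2 RPKM in nTg, 41.7, 37.2 and 39.9 in MFN2-R94Q, and 43.2, 41.6, 41.9, 42.4 and 41.5 in MFN2-R94Q:MFN1. The lowest value was again MFN2-R94Q replicate 2. The estimate against nTg was -0.11 (SE 0.043, -0.21 to -0.02, adjusted p = 0.078), and -0.15 (adjusted p = 0.027) without MFN2-R94Q replicate 1 but -0.07 (adjusted p = 0.24) without replicate 2. Against MFN2-R94Q, MFN2-R94Q:MFN1 was at 0.09 (0.01 to 0.17, adjusted p = 0.14), and at 0.13 (adjusted p = 0.045) and 0.05 (adjusted p = 0.48) without the same libraries.

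Within its group, MFN2-R94Q replicate 2 was the highest library for Pink1, Optn, Sqstm1 and Calcoco1 and the lowest for Bnip3l, Fundc1, Tbk1 and Tax1bp1. The members thus shared no direction in it, and the margin was narrow for Tbk1 (14.54 RPKM against 14.70 in replicate 1). The same library had the summed glucocorticoid response of 1891 RPKM and the lowest oligodendrocyte and motor neuron sums, 3602 and 88.7 RPKM. Its sums of neuron (2207), astrocyte (1059), microglia (150), endothelial (64.0) and red blood cell markers (116 RPKM) were likewise the lowest of all libraries. The low sums were thus not particular to 1 cell type, though Schwann cell, ganglion and muscle sums were not lowest in it. The part of these in the members' values was not tested. Without it, the MFN2-R94Q mean of Optn was 14.2 RPKM, still above every nTg library.

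Counted together, 1 of 9 members, Optn, was higher and 0 were lower in MFN2-R94Q than in nTg, where 7.5% of all tested genes were higher and 10.4% lower. At an unadjusted p of 0.05, 4 of the 9 passed in limma: Optn, Tbk1 and Calcoco1 above nTg and Tax1bp1 below, beside 34.4% of tested genes. Groups did not overlap for 2 members, Optn and Tbk1, against 35.7% of tested genes. The median absolute log2 fold change of the 9 was 0.091, and that of all tested genes was 0.098. So the share of members past the test and the typical size of their differences were near the background.

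In MFN2-R94Q:MFN1 against MFN2-R94Q, 1 member was lower, Optn, and 0 were higher, where 3.33% of tested genes were lower and 9.55% higher. At an unadjusted p of 0.05, 3 members passed, Optn lower and Bnip3l and Tax1bp1 higher, beside 29.4% of tested genes. Groups overlapped for all 9 members, whereas they did not for 20.1% of tested genes. The members' median absolute difference was 0.078, as was that of all tested genes.

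In MFN2-R94Q:MFN1 against nTg, 0 members passed in either direction, where 2.09% of tested genes were higher and 0.223% lower. Optn was the 1 member at an unadjusted p under 0.05, which 15.5% of tested genes reached, and the 1 member whose groups did not overlap, against 14.1% of tested genes. Apart from Optn at 0.13, the estimates lay between -0.05 and 0.05. The 3 comparisons share their groups pairwise, so their estimates are not independent of each other.

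**Figure D4:**
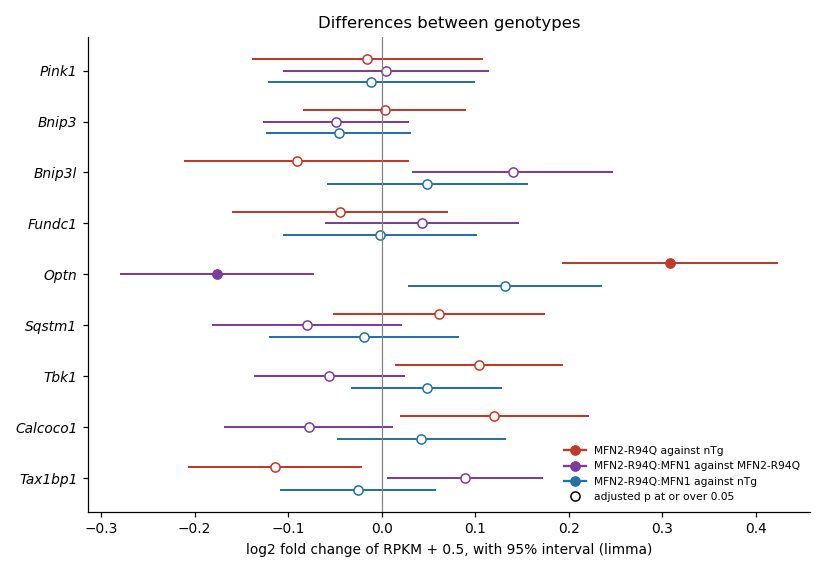
Log2 fold changes of the 9 genes with 95% intervals in the 3 comparisons, on the log2(RPKM + 0.5) scale; filled points have an adjusted p under 0.05. Optn alone is filled against nTg, at 0.31, and in MFN2-R94Q:MFN1 against MFN2-R94Q at -0.18, and none is filled in MFN2-R94Q:MFN1 against nTg.

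The genes whose values ran most like Optn over the 11 libraries, among 8824 tested genes of at least 5 RPKM on average, were Hnrnpa3, an RNA-binding protein gene (Pearson r = 0.98), Bclaf1 (0.97) and Abca5, a lipid transporter gene (0.97). Bclaf1 was at 17.7, 22.8 and 19.4 RPKM in nTg, MFN2-R94Q and MFN2-R94Q:MFN1. The libraries share genotype, depth and tissue makeup, and the correlations describe these 11 libraries.

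The wider pathway was read through 6 lists of 127 genes apart from the members, 126 of them tested. In MFN2-R94Q against nTg 13 were higher (10.3%) and 10 lower (7.94%), beside 7.5% and 10.4% of all tested genes. In MFN2-R94Q:MFN1 against MFN2-R94Q 9 were higher (7.14%) and 8 lower (6.35%), beside 9.55% and 3.33% of all tested genes. In MFN2-R94Q:MFN1 against nTg 1 was higher (0.794%) and 0 lower, beside 2.09% and 0.223%. Their median log2 fold changes were 0.001, -0.006 and -0.003. Leaving out single libraries moved the first pair of counts to as few as 5 higher (without nTg replicate 3) and 2 lower (without nTg replicate 1). It moved that pair to as many as 15 higher (without MFN2-R94Q replicate 1). It moved the second to as few as 2 higher (without MFN2-R94Q:MFN1 replicate 5) and 3 lower (without MFN2-R94Q replicate 2), and to as many as 13 lower (without MFN2-R94Q replicate 1). For the first 5 of these lists, each of the 11 libraries, when left out, moved at least 1 count of called genes. A move was a change by over 1.5 times or any change to or from 0, so a step of 1 gene could be enough. Genes are therefore named below rather than counts compared.

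Among 33 partners of the PINK1 axis, 2 were higher and 3 lower in MFN2-R94Q than in nTg. Tomm20, a receptor of the mitochondrial import channel, rose from 59.5 ± 0.984 to 70.8 ± 3.24 RPKM (log2 0.25, adjusted p = 0.0031) and was back at 60.8 ± 1.61 in MFN2-R94Q:MFN1 (-0.22, adjusted p = 0.0030). Tomm7, an import channel subunit that helps hold PINK1 on the outer membrane, fell from 32.3 ± 0.813 to 27.2 ± 1.39 RPKM (-0.24, adjusted p = 0.011). These calls for Tomm20 and Tomm7 held with each library left out. The prohibitin gene Phb fell by 0.18 (adjusted p = 0.014), a call lost without nTg replicate 1 (adjusted p = 0.056). With MFN1 added, 3 partners were higher and 2 lower, the second being Tomm70a, another import receptor gene (-0.13, adjusted p = 0.019).

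Of 11 tested receptors and adaptors outside the 9, 0 passed in MFN2-R94Q against nTg, and 1, Gbas (Nipsnap2, a mitochondrial flag for adaptors), rose by 0.12 with MFN1 (adjusted p = 0.040), a call lost in 9 of 11 runs with a library left out. Of 17 genes of TBK1 partners and the Rab7 cycle, 1 was higher and 2 lower against nTg. Mon1a, part of the exchange factor for Rab7, fell by 0.22 (adjusted p = 0.014), lost without nTg replicate 1 (adjusted p = 0.055). Tbc1d15, a Rab7 brake found at mitochondria, rose by 0.19 (adjusted p = 0.036), lost in 4 of the 11 runs.

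Of 16 genes of the ATG8 family and its conjugation, 2 were lower and 0 higher in MFN2-R94Q. Atg4b, the protease that primes ATG8 proteins, fell from 21.0 ± 0.957 to 18.0 ± 0.487 RPKM (-0.21, adjusted p = 0.012), and this held with each library left out. With MFN1 added 2 were higher, among them Gabarap, an ATG8 family gene, at 0.15 (adjusted p = 0.024, lost in 3 of 11 runs). Of 25 genes of autophagosome initiation and membrane supply, 1 was higher and 3 lower against nTg. Stx17, the syntaxin of autophagosome fusion with lysosomes, rose from 5.86 ± 0.0856 to 7.79 ± 0.532 RPKM (0.38, adjusted p = 0.0033), and held with each library left out. Its partner Vamp8 did not pass in that comparison. It was 0.32 higher in MFN2-R94Q:MFN1 than in nTg (adjusted p = 0.0037), at 11.04 ± 0.406 against 8.76 ± 0.294 RPKM. In MFN2-R94Q:MFN1 against MFN2-R94Q the pair went opposite ways. Stx17 was at -0.22 (adjusted p = 0.027, kept in 8 of 11 runs with a library left out) and Vamp8 at 0.22 (adjusted p = 0.016).

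In MFN2-R94Q against nTg, 7.5% of all tested genes were higher and 10.4% lower. In the list of autophagy transcription and mTORC1 control, 9 of 24 were higher there and 0 lower, with a list median of 0.007. They included Fnip1 (0.29, adjusted p = 0.0081) and Fnip2 (0.41, adjusted p = 0.0093), partners of folliculin, and Tsc1 (0.21, adjusted p = 0.019, lost without nTg replicate 1 or 2), a brake on mTORC1. Fnip1 and Fnip2 held with each library left out, while the count of 9 became 5, 4 and 3 without nTg replicates 1, 2 and 3, 4 without MFN2-R94Q replicate 2, and 0 when the 2 groups were fitted alone. With MFN1 added, 3 were lower and 1 higher, beside 3.33% and 9.55% of all tested genes. Sesn1, a sestrin that restrains mTORC1, fell from 15.2 ± 3.14 to 11.3 ± 0.390 RPKM (-0.40, adjusted p = 0.013; -0.24 without MFN2-R94Q replicate 2), and Tfeb, a master factor of lysosome genes, rose by 0.27 (adjusted p = 0.031, lost in 5 of 11 runs). The summed glucocorticoid response was 878 to 1891 RPKM in MFN2-R94Q against 633 to 746 in nTg, and its part in this list was not tested. Much of that sum was 2 metallothionein genes. Mt1 averaged 301 RPKM in nTg and 548 in MFN2-R94Q, and Mt2 191 and 368.

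**Figure D5:**
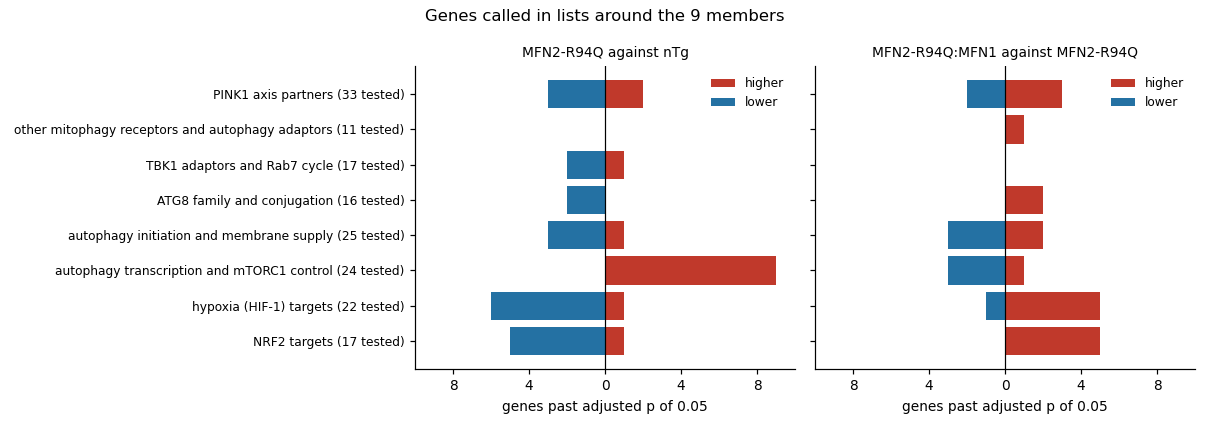
Number of genes called higher (to the right) and lower (to the left) in each of 8 lists, in MFN2-R94Q against nTg and in MFN2-R94Q:MFN1 against MFN2-R94Q, with the number tested beside each list name. The mTORC1 list has 9 higher and 0 lower against nTg, and the NRF2 list has 5 lower and 1 higher against nTg and 5 higher with MFN1.

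The receptors Bnip3 and Bnip3l are textbook HIF-1 targets and Sqstm1 is a textbook NRF2 target, so both target sets were read beside them. Of 22 tested HIF-1 targets, 1 was higher and 6 lower in MFN2-R94Q than in nTg, with a median of -0.06. Of all tested genes, 7.5% were higher and 10.4% lower. Vegfa, the vascular growth factor gene, fell from 20.7 ± 1.28 to 13.3 ± 2.24 RPKM (-0.63, adjusted p = 0.0029), and Ldha, lactate dehydrogenase A, fell from 41.0 ± 2.26 to 29.8 ± 1.96 (-0.46, adjusted p = 0.0031). Both held with each library left out, whereas the count of 6 became 3 without nTg replicate 3. The 1 higher gene, Kdm3a, rose from 6.87 ± 0.386 to 8.61 ± 0.757 RPKM (0.30, adjusted p = 0.0078), and this also held with each library left out. Adding MFN1 left 5 higher and 1 lower than in MFN2-R94Q, beside 9.55% and 3.33% of all tested genes. Vegfa was at 0.48 (adjusted p = 0.0049) and Ldha at 0.36 (adjusted p = 0.0056). The 1 lower gene was Kdm3a (-0.23, adjusted p = 0.019), a call lost without MFN2-R94Q replicate 2. Bnip3 itself had an interval of -0.08 to 0.09 against nTg. Bnip3l had -0.21 to 0.03 against nTg and 0.03 to 0.25 with MFN1 added (adjusted p = 0.079). Neither receptor gene passed the test.

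Of 17 tested NRF2 targets, which defend against oxidants, 5 were lower and 1 higher in MFN2-R94Q, with a median of -0.10. Of all tested genes, 10.4% were lower and 7.5% higher. Taldo1, transaldolase of the pentose phosphate route, fell from 73.1 ± 3.39 to 57.7 ± 4.81 RPKM (-0.34, adjusted p = 0.0031) and was at 73.6 ± 1.60 with MFN1 (0.35, adjusted p = 0.0013), calls that held with each library left out. The malic enzyme gene Me1 fell by 0.22 (adjusted p = 0.020), lost without nTg replicate 1 or 2. The count of 5 became 2 and 1 without nTg replicates 1 and 2. With MFN1, 5 were higher and 0 lower, beside 9.55% and 3.33% of all tested genes. Among the 5 was Ftl1, the ferritin light chain gene, at 226 ± 5.40 RPKM against 189 ± 6.35 (0.26, adjusted p = 0.00068). Markers of the endothelium, the target tissue of the VEGF protein, summed to 83.3 to 87.9 RPKM in nTg, 64.0 to 74.8 in MFN2-R94Q and 75.9 to 91.6 in MFN2-R94Q:MFN1, and the part of cell makeup in either list was not tested.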

How the data were processed

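Messenger RNA was sequenced from 11 libraries of lumbar spinal cord with a stranded TruSeq kit, per the labels' protocols. The authors deposited 1 table of RPKM values; the tools were TopHat, with no version, and Partek 7.17.0918, on build mm10, per the submitters' processing notes. The sources used here state neither the annotation, nor the rule for reads that fit several genes, nor the use of strand. A spreadsheet had turned 25 names into dates, and March5, a gene of the lists, was not matched. Gene positions are from RefSeq on GRCm38.p6, and exon counts are those of the longest GENCODE M21 coding transcript.

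Depth was recovered from low values of RNA genes under 160 bases, of which 94.2% to 96.7% per library were whole reads within 0.02 (values of at most 5 reads). Differential expression used limma 3.58.1 in R 4.3.3 (eBayes with trend) on log2(RPKM + 0.5), with genes of at least 0.5 RPKM in 3 libraries, in 1 fit of all 11 libraries. P-values are two-sided and Benjamini-Hochberg adjusted over 14347 genes, with a threshold of 0.05. The fit was tested on simulated data. Errors after RPKM are SDs.

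The members and the 19 lists (6 pathway lists, HIF-1, NRF2 and glucocorticoid targets, 10 sets of cell markers) were chosen with earlier results of these data known, and no list was tested as a set. A gene that the choice took is not reported here. Genes named were the 9 members, up to 4 genes with the smallest p per list and comparison among those past the threshold, and the 3 genes most correlated with the changed member. Not every gene the rule took is described. Replicate numbers follow the order of the records. There were 23 alternatives: pseudocounts of 0.1 and 1, no filter or 1 RPKM, quantile normalization, median centring, 2 groups only, library weights, no variance trend, robust variance, thresholds of 0.1 and 0.01, and each of 11 libraries left out.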

Additional observations from a re-analysis of the deposited data

Results flagged for a closer look

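The check covered 55 genes: the 9 members, genes the naming rule took from the 9 lists other than cell markers, and those most correlated with Optn. Cell marker genes were not checked. In the 5 MFN2-R94Q:MFN1 libraries, 3 of the 55 had 1 library whose gap to its nearest neighbour exceeded 0.71 of the group's range. Chance gives this for about 1 gene in 20. None of these 3 was 1 of the 9 members, and groups of 3 libraries were not checked. Tomm20 was at 58.0 RPKM in replicate 4, below 60.9 to 62.0 in the other libraries. Gbas was at 30.2 RPKM in replicate 2, above 27.8 to 28.1 in the others. Bhlhe40, a HIF-1 target encoding a circadian repressor, was at 24.6 RPKM in replicate 2, above 21.9 to 22.6 in the others.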

How the results depend on the processing

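Of 621 values for the 9 members (3 comparisons, 23 alternatives), 575 kept direction and side of the threshold, 17 newly passed it, 9 no longer passed and 20 changed sign. Members higher in MFN2-R94Q than in nTg numbered 1, with 2 under quantile normalization, 3 with library weights and at a threshold of 0.1, and 1 to 2 with a library left out. Members lower there numbered 0, with 1 under library weights and at 0.1, and 0 to 2 with a library left out. In MFN2-R94Q:MFN1 against MFN2-R94Q, 0 members were higher, with 1 under library weights and at 0.1, and 0 to 2 with a library left out. Members lower there numbered 1, with 0 under no filter, 2 groups only and a threshold of 0.01, and 0 to 1 with a library left out. Under library weights the 1 lower member was Calcoco1 (-0.092, adjusted p = 0.026), not Optn (-0.087, adjusted p = 0.090). Without MFN2-R94Q replicate 1 it was again Calcoco1 (-0.130, adjusted p = 0.037), with Optn no longer past the threshold. The cause was not tested.

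Sign changes were all in values that passed no test. Pink1 in MFN2-R94Q against nTg was 0.019 under quantile normalization and -0.074 to 0.049 with a library left out. Bnip3 there was -0.027 with library weights and -0.021 to 0.033 with a library left out, and Sqstm1 -0.012 to 0.099. Pink1 in MFN2-R94Q:MFN1 against MFN2-R94Q was -0.034 under quantile normalization, -0.013 under median centring and -0.060 to 0.063 with a library left out. In MFN2-R94Q:MFN1 against nTg, Fundc1 was 0.0024 under quantile normalization and -0.029 to 0.027 with a library left out, Pink1 -0.036 to 0.011 and Sqstm1 -0.038 to 0.0038.

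Counts over all tested genes, higher and lower, were 1076 and 1485 in MFN2-R94Q against nTg. They were 1267 and 1278 under quantile normalization, 259 and 587 with 2 groups alone, 1667 and 2011 with library weights, 743 and 949, 465 and 748 and 634 and 1050 without nTg replicates 1, 2 and 3, and 618 and 1000 without MFN2-R94Q replicate 2. For MFN2-R94Q:MFN1 against MFN2-R94Q they were 1370 and 478, with 1004 and 833 under quantile normalization, 1057 and 731 under median centring, 893 and 305 with no filter, 1033 and 288 with 2 groups alone and 2248 and 1130 with library weights. Leaving out MFN2-R94Q replicates 1 and 2 gave 1471 and 746 and 727 and 155, and leaving out MFN2-R94Q:MFN1 replicates 2, 4 and 5 gave 852 and 245, 1067 and 283 and 914 and 235. For MFN2-R94Q:MFN1 against nTg they were 300 and 32, with 264 and 21 with no filter, 231 and 61 under median centring, 458 and 108 with 2 groups alone, 491 and 99 with library weights and 478 and 111 without MFN2-R94Q replicate 2. There, leaving out nTg replicates 1, 2 and 3 gave 180 and 9, 183 and 9 and 187 and 26, and leaving out MFN2-R94Q:MFN1 replicates 3 and 4 gave 220 and 14 and 191 and 14. No scaling moved the median of all genes by over 0.1. No paired analysis was possible because the labels give no replicate numbers or shared litters. Depth is lowest for Optn, at about 1063 to 2357 reads per library.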
